A study of Mus musculus with 6 samples.

Results

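Interferon-stimulated genes are the genes that cells switch on when interferon reaches them, and unstimulated macrophages keep many of them at a low standing level. A list of 39 such genes was examined in mouse bone marrow-derived macrophages that lacked 2 retinoid X receptors and in wild-type (WT) macrophages. The members were taken by gene symbol from a table of 45193 Ensembl genes, and all 39 were found in it. The 3 WT libraries came from C57BL/6J mice. The 3 knockout libraries, named RXRKO here, carry the genotype RXRafl/flLysMCre RXRb-/-: loxP-flanked Rxra alleles, Cre recombinase under the lysozyme M locus, which limits the Rxra deletion to myeloid cells, and inactive Rxrb alleles. Every culture was grown for 6 days with medium from L929 cells, which supplies the growth factor CSF-1. The medium was made serum-free on the evening of day 5, and all cells then received the solvent DMSO for 3 hours. No group received interferon, a Toll-like receptor ligand or a retinoid, so the comparison asks whether the standing level of the interferon response differs between the genotypes.

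Interferons alpha and beta bind the receptor of IFNAR1 and IFNAR2 and activate the kinases JAK1 and TYK2, after which a complex that holds STAT2 and IRF9 binds an interferon-stimulated response element in target promoters. Interferon gamma acts on another element, the gamma-activated sequence, and is a strong inducer of guanylate-binding proteins and CXCR3 ligands. Retinoid X receptors are nuclear receptors that pair with many others on repeats of a short half-site, and RXR alpha has been described as a restraint on interferon production in macrophages.

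Many members hold the response element near their start, and the matched sites are shown because the rule that chose the members did not use sequence. RefSeq promoter windows (GRCm38.p6, 250 bases before to 50 after each transcript start) were matched by symbol for 30 of the 39 members. The element was searched on both strands as GAAA, 2 bases of any kind and GAAA again, with matches allowed to overlap. It stood in a window of 18 of those 30 members (60%), of 25 of 55 further interferon-stimulated genes (45.5%) and of 1079 of all 27025 genes with a window (3.99%). Of the 5 members that rose in the knockout, 4 held a match. Their sites follow 5′ to 3′ on the strand of the gene, 30 bases each, with the matches in capitals (matches that begin with TTTC are on the opposite strand).
Gbp2: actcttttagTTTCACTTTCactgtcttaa
Gbp3: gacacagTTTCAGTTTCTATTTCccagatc
Rsad2: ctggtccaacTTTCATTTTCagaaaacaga
Slfn5: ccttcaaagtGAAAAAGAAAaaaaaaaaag
The Gbp2 site is chr3:142620594-142620623 on the plus strand, and its match begins 59 bases before the RefSeq start, within an exon of the GENCODE annotation. The Gbp3 site is chr3:142559992-142560021 on the plus strand and holds 2 overlapping matches that begin 45 and 39 bases before the start. The Rsad2 site is chr12:26456553-26456582 on the minus strand, 120 bases before the start. The Slfn5 match, in chr11:82951937-82951966 on the plus strand, lies 155 bases before the RefSeq start, next to a run of A. That start is downstream of the GENCODE gene start, so the site lies inside the GENCODE gene and outside its exons. Ifit2, the fifth member that rose, held no match in either of its windows.

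Members with as many or more matches did not pass the test. For contrast, the sites of 4 such members are shown, chosen after their values were seen.
Isg15: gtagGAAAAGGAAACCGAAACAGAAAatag
Ifit1: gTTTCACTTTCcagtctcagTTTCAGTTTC
Bst2: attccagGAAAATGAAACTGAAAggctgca
Oas1a: cccttctcggGAAATGGAAACTGAAAatct
Isg15 (chr4:156200871-156200900, minus strand) holds 3 overlapping matches. Ifit1 (chr19:34640784-34640813, plus strand), Bst2 (chr8:71537580-71537609, minus strand) and Oas1a (chr5:120907526-120907555, minus strand) hold 2 each. The whole stretch of 250 bases before the start is given for Rsad2, which rose, and for Isg15, the member with the lowest fold change.
Rsad2: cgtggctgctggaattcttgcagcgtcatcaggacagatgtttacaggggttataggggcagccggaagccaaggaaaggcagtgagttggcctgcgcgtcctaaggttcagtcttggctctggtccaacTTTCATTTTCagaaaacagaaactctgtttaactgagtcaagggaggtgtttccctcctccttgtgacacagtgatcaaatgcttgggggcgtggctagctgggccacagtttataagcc
Isg15: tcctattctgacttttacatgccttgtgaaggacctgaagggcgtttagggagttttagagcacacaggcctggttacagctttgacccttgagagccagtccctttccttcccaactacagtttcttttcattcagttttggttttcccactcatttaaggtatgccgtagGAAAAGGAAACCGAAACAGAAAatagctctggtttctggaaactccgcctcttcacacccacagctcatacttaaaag
The Rsad2 stretch is chr12:26456453-26456702 and the Isg15 stretch chr4:156200819-156201068, both on the minus strand. The gamma-activated sequence, searched as TTCNNNGAA, stood in a window of 6 of the 30 members (20%) and of 9.55% of all genes. The nuclear receptor half-site AGGTCA, searched on both strands, stood in a window of 8 members (26.7%) and of 18.1% of all genes (14.6% of tested genes). It stood in 0 of the 5 members that rose, and 5 genes are too few to read that as a lack. A match is a description of letters and was not tested as a binding site.

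Across the table, genes with and without the response element had like shares called. Of 365 tested genes with the element, 42 rose (11.5%) and 36 fell (9.86%), with a median log2 fold change of -0.004. Among 8903 tested genes without it, 855 rose (9.6%) and 888 fell (9.97%), with a median of -0.006. Of the 17 tested members with the element 4 rose and their median was 0.27. Of the 11 tested members with a window but no match 1 rose, and their median was 0.12.

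Total counts per library ranged from 7880320 to 14957253 in WT and from 17250051 to 25091019 in RXRKO, so depth and genotype cannot be told apart by design. Rxrb was at 66.7 ± 1.86 CPM (counts relative to library size, scaled by TMM factors) in WT and 9.27 ± 2.09 CPM in RXRKO (SD, n = 3), while Rxra, counted over its whole length, was at 104 ± 6.7 and 109 ± 4.83 CPM and does not check the deletion of the floxed part. The Cre locus Lyz2 fell to 0.00186 of its WT level, and no WT library carries Cre. Effects of receptor loss, Lyz2 loss, Cre and any difference in strain background therefore cannot be told apart. The macrophage markers Adgre1 (means of 1920 CPM for WT and 1900 CPM for RXRKO) and Cd68 (1370 and 1280 CPM) were abundant and did not pass the test. Of the 7 macrophage markers, 3 rose in the knockout: Csf1r 1.31-fold, Itgam 1.57-fold and Cd14 2.12-fold (edgeR adjusted p = 0.00575, 0.000346 and 1.58e-06). Fcgr1, itself interferon-inducible, fell to 0.773 of its WT level (edgeR adjusted p = 0.022), and Mertk did not pass. The summed level of the 7 ran from 6230 to 7220 CPM in WT and from 7150 to 8370 CPM in RXRKO, and its part in the member values was not tested.

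Of the 39 members, 37 had enough reads for the test. Gbp2, Rsad2, Gbp3, Ifit2 and Slfn5 rose by 1.41-fold to 1.88-fold, 0 members fell and 32 did not pass (edgeR quasi-likelihood test, Benjamini-Hochberg adjusted over 12011 genes, threshold 0.05). The risen share, 13.5% of the tested members, stood beside 9.77% of all tested genes that rose, and the fallen share of 0 beside 9.61% that fell. In either direction 13.5% of the tested members were called, beside 19.4% of all tested genes. At an unadjusted p below 0.05 there were 10 members higher and 1 lower (Isg15), together 29.7% of the members against 32.5% of all tested genes. DESeq2 and limma-voom called the same 5 members higher and 0 lower.

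The median log2 fold change over the 37 members was 0.18, beside -0.005 over all tested genes, and 25 of the 37 values were above 0. All 3 knockout libraries lay above all 3 WT libraries in 13 members (35.1%), beside 19.0% of all tested genes, and below them in 1 member, Rtp4 (2.7%), beside 17.9%. The 95% interval of the fold change lay within 1.5-fold either way for 21 members (56.8%), beside 60.1% of all tested genes, and the other 16 intervals reached past it. Of the 37 tested members, Gbp5 and Ifi44 reached the filter's cutoff in all 3 RXRKO libraries but in 2 and 1 WT libraries, so they passed through the knockout libraries and a value above 0 was favoured for them. The counts and the median above are therefore descriptions of the tested members. With no filter on low counts the median was 0.15, beside 0.12 over all genes in that fit. That fit took in 27301 genes in place of 12011, and the added genes had failed the filter on low counts. Its median over all genes is therefore not of a like set with the -0.005 above. The 2 members left out of the test, Ifi205 and Cxcl9, were low in both genotypes.

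**Figure D1:**
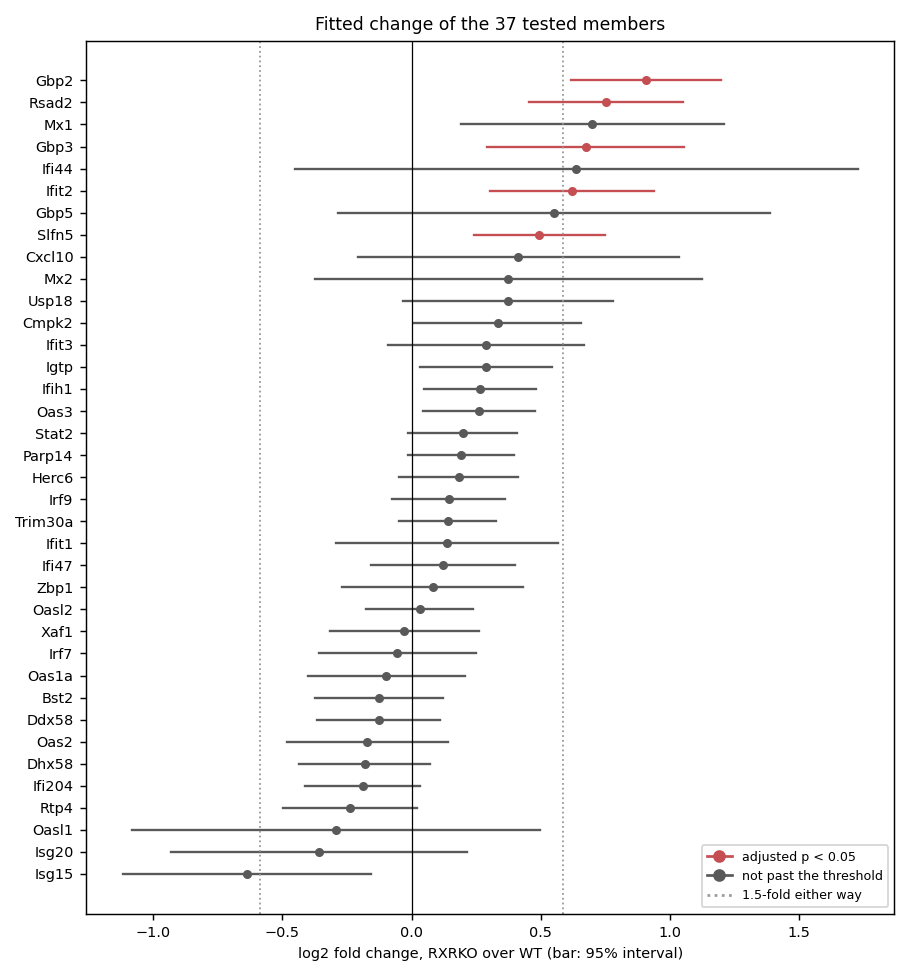
Fitted log2 fold change, RXRKO over WT, of the 37 tested members (points) with 95% intervals (bars), ordered by size, with dotted lines at 1.5-fold either way and red for members past the adjusted threshold of 0.05. Gbp2 (0.91) lies highest and Isg15 (-0.64) lowest, and the wide bars of Ifi44, Gbp5 and Oasl1 belong to members with few reads.

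**Figure D2:**
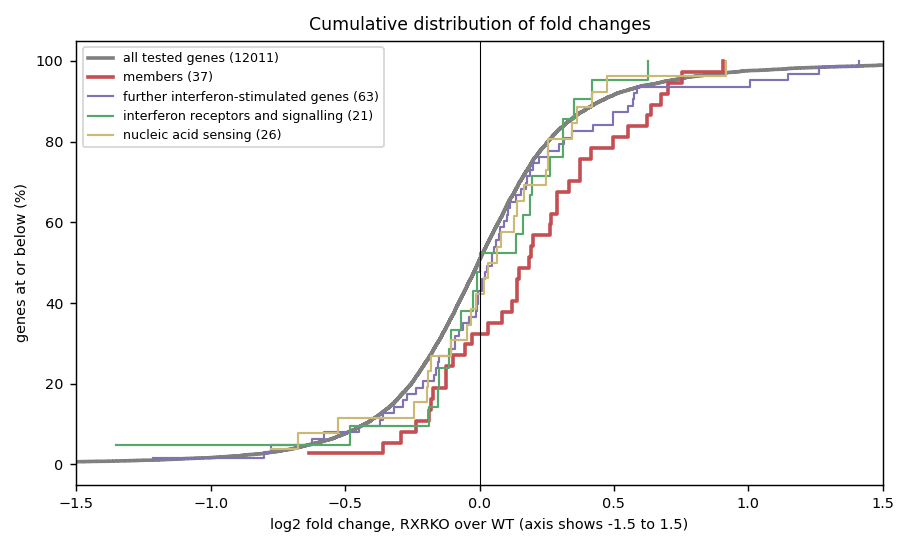
Cumulative share of genes (%, vertical axis) at or below each log2 fold change (horizontal axis, shown from -1.5 to 1.5) for all 12011 tested genes, the 37 members and 3 other lists of the interferon pathway. The member curve runs to the right of the curve of all genes between about 0 and 0.7, with a median of 0.18 against -0.005. Values below 0 were held by 12 of the 37 members and by 6095 of the 12011 tested genes. The member curve also lies to the right below its lowest value, -0.64.

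The summed level of the 39 members was 999, 1122 and 1108 CPM in WT replicates 1, 2 and 3 and 1157, 1121 and 1209 CPM in RXRKO replicates 1, 2 and 3. These sums overlap, since RXRKO replicate 2 lay 1 CPM below WT replicate 2, and they hold between 0.0999% and 0.12% of all counts. WT replicate 1 had the lowest value of its group in 17 of the 37 tested members, and RXRKO replicate 2 in 19. Library by library, the median log2 difference from the WT mean was -0.10, 0.06 and 0.10 in WT and 0.17, 0.18 and 0.21 in RXRKO. With WT replicate 1 left out, Gbp2 and Rsad2 were the only members still called, the median over the members was 0.14, and the count over all genes fell from 2327 to 1286. That fit tested 38 members and called 2 higher and 0 lower, beside 5.4% and 5.01% of all tested genes.

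**Figure D3:**
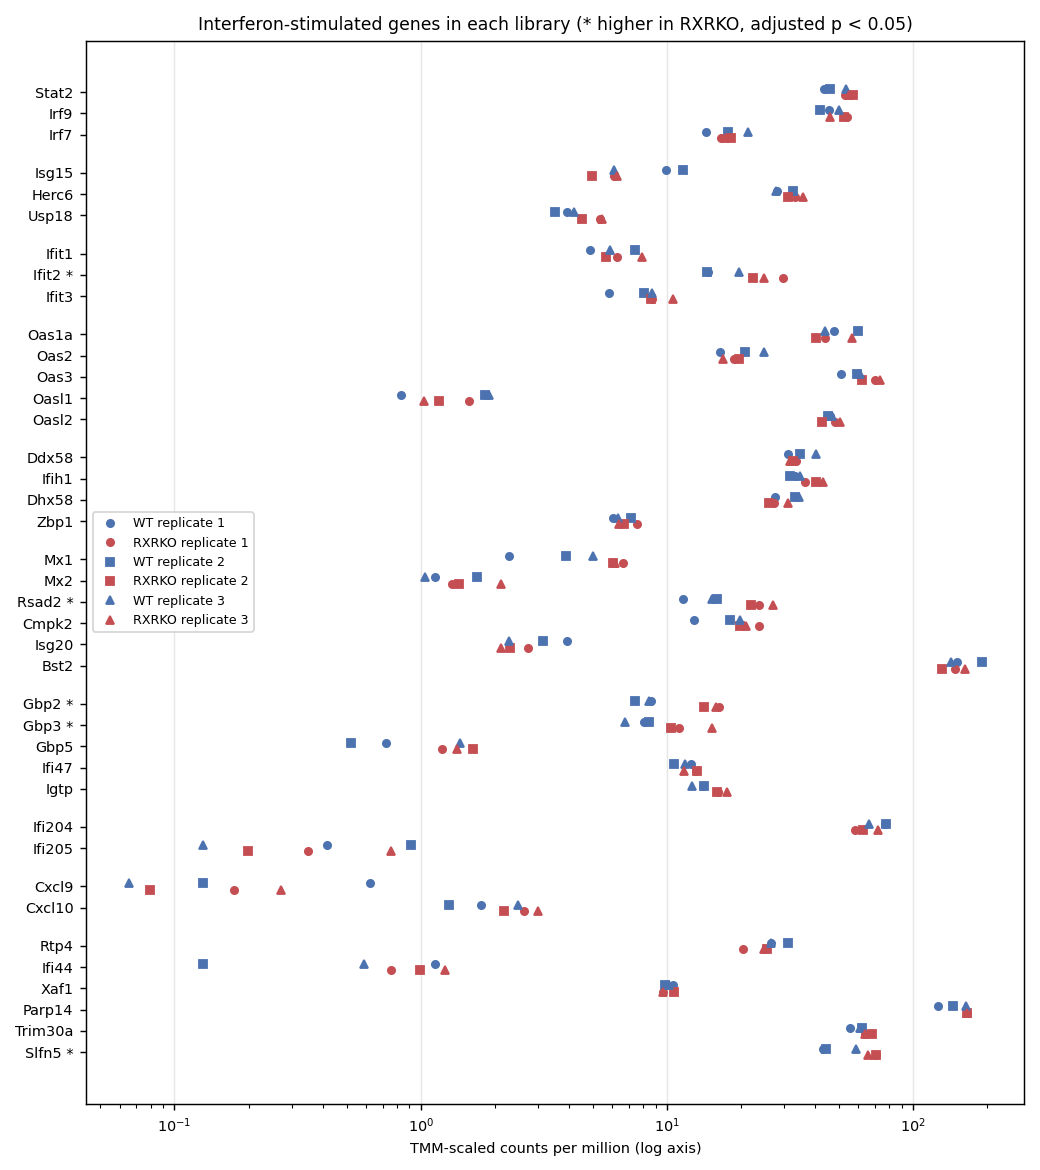
TMM-scaled CPM (horizontal log axis) of each of the 39 members in each library, grouped by role, with WT in blue, RXRKO in red and a marker shape for each replicate. Red lies to the right of blue without overlap in the 5 members marked by a star, while most other members overlap and Isg15 has 2 WT libraries above all others.

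The guanylate-binding proteins are large GTPases that interferon induces and that gather on membranes around intracellular pathogens, and with the immunity-related GTPases they gave 2 of the 5 rises. Gbp2 (ENSMUSG00000028270, chr3:142620602-142638008 in GRCm38) was at 8.61, 7.43 and 8.42 CPM in WT and 16.3, 14.1 and 15.8 CPM in RXRKO. Every knockout library was well above every WT library, and the fold change was 1.88 (95% interval 1.53 to 2.29; log2 0.91, SE 0.134, edgeR adjusted p = 0.000451). Gbp3 (chr3:142560026-142573209), its neighbour on chromosome 3, was at 8.09, 8.48 and 6.73 CPM in WT and 11.2, 10.4 and 15.2 CPM in RXRKO. The groups did not overlap, with RXRKO replicate 3 highest, and the fold change was 1.6 (1.23 to 2.08; edgeR adjusted p = 0.0175). The call of Gbp3 was lost without WT replicate 1 (edgeR adjusted p = 0.0661) or WT replicate 3 (0.0776).

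The other members of the group did not pass. Gbp5, which promotes inflammasome assembly, had 33 reads in all WT libraries and 88 in all RXRKO libraries (log2 fold change 0.55, 95% interval -0.29 to 1.39), too few to bound a change. Igtp, the most abundant of the group per length, was at 14, 14.2 and 12.7 CPM in WT and 16.2, 16 and 17.5 CPM in RXRKO. Its groups did not overlap, but the fold change of 1.22 (1.02 to 1.46) missed the threshold (edgeR adjusted p = 0.111) and passed it with offsets for gene length and GC content (0.0279). Igtp shares 7.8% of its 75-base stretches with the overlapping gene Irgm2, which fell from 20.7 ± 1.29 to 13.5 ± 2.21 CPM (edgeR adjusted p = 0.00659, log2 fold change -0.62), a call lost after thinning to equal depth (0.117). Together the 2 genes gave 34.1, 34 and 34.9 CPM in WT and 30.9, 30.7 and 28.5 CPM in RXRKO, so their sum lay lower in every knockout library. Ifi47 gave 11.6 ± 0.884 and 12.7 ± 0.824 CPM.

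Among the direct antiviral effectors, Rsad2, which encodes viperin, a radical SAM enzyme that makes a chain-terminating nucleotide, was the member that rose. It (ENSMUSG00000020641, chr12:26442746-26456452) was at 11.6, 16 and 15.3 CPM in WT and 23.7, 22 and 26.9 CPM in RXRKO. The groups were well apart, and the fold change was 1.68 (1.37 to 2.07; log2 0.75, SE 0.138, edgeR adjusted p = 0.00223). Cmpk2, a mitochondrial nucleotide kinase gene, starts 12752 bases away on the other strand. Its values were 12.9, 18 and 19.9 CPM in WT and 23.6, 19.9 and 21 CPM in RXRKO, with RXRKO replicate 2 and WT replicate 3 nearly equal (fold change 1.26, 1.01 to 1.58, edgeR adjusted p = 0.143).

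The dynamin-like GTPase gene Mx1, whose protein traps viral ribonucleoprotein but is disrupted in many laboratory strains, lay just outside the threshold. It was at 2.28, 3.91 and 5.03 CPM in WT and 6.63, 6.03 and 6.14 CPM in RXRKO, with no overlap (fold change 1.62, 1.14 to 2.31, edgeR adjusted p = 0.0536). It passed without WT replicate 3 (0.0156), with no filter on low counts (0.0135) and in the limma fit to the authors' log2 values (0.0466). Mx2, a polymorphic pseudogene in the annotation, had 40 and 98 reads per genotype and gave a log2 fold change of 0.38 (-0.37 to 1.12). Bst2, which encodes tetherin, the protein that holds budding virions on the cell, was the most abundant member per length, at 171 CPM per kilobase over all libraries where the next, Oas1a, had 25.9. Its libraries gave 151, 190 and 143 CPM in WT and 148, 131 and 163 CPM in RXRKO, overlapping throughout (fold change 0.917, 0.773 to 1.09). The exonuclease gene Isg20 gave 3.12 ± 0.829 and 2.38 ± 0.316 CPM (edgeR adjusted p = 0.381).

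IFIT proteins bind viral RNA with foreign ends and block its translation. Of the 3 members, Ifit2 (ENSMUSG00000045932, chr19:34550694-34576419) rose, from 14.7, 14.6 and 19.6 CPM in WT to 29.5, 22.3 and 24.7 CPM in RXRKO. The groups did not overlap and the fold change was 1.54 (1.23 to 1.92; log2 0.62, SE 0.146, edgeR adjusted p = 0.0101), a call lost without WT replicate 1 (0.0696) or RXRKO replicate 1 (0.0564). Its neighbours on chromosome 19 did not pass: Ifit1 was at 6.06 ± 1.29 and 6.63 ± 1.17 CPM, and Ifit3 at 7.53 ± 1.52 and 9.29 ± 1.13 CPM. Ifit3 shares 41.1% of its 75-base stretches with Ifit3b, so reads of the 2 copies can be misplaced. Their sum was 7.37, 9.78 and 10.4 CPM in WT and 9.77, 9.76 and 11.1 CPM in RXRKO, which overlaps.

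Slfn5, a Schlafen family gene, rose as well. It (ENSMUSG00000054404, chr11:82951349-82964840) was at 43.2, 44.1 and 58.8 CPM in WT and 70.8, 70.9 and 65.6 CPM in RXRKO. WT replicate 3 came closest to the knockout libraries without reaching them, and the fold change was 1.41 (1.18 to 1.68; log2 0.49, SE 0.117, edgeR adjusted p = 0.01). The call was lost without WT replicate 1 (0.0658). The antisense gene Slfn5os covers 8.84% of its exon bases and had 0 reads in every library. Parp14, an ADP-ribosyltransferase gene and the most abundant of this group per length, was at 126, 145 and 164 CPM in WT and at 166 CPM in each knockout library. Its groups did not overlap, yet the fold change of 1.14 (0.991 to 1.32) did not pass (edgeR adjusted p = 0.182) except without WT replicate 3 (0.0357). Trim30a, which dampens Toll-like receptor signalling, went from 59.3 ± 3.59 to 65.3 ± 2.59 CPM. Rtp4, a chaperone of receptor transport, was the member whose knockout libraries all lay below WT: 26.4, 30.9 and 26.4 CPM against 20.4, 25.4 and 24.7 CPM (fold change 0.848, 0.708 to 1.02, edgeR adjusted p = 0.19). Xaf1 was nearly level at 10.2 ± 0.401 and 9.98 ± 0.602 CPM. Ifi44 had 21 reads in WT and 61 in the deeper RXRKO libraries. Its levels were 0.62 ± 0.506 and 0.999 ± 0.247 CPM, which overlap (fold change 1.56, 0.731 to 3.31).

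The transcription factors of the response were close to level. Irf9, a DNA-binding subunit of the complex that holds STAT2, was at 45.5, 41.9 and 50 CPM in WT and 54, 52.4 and 46.1 CPM in RXRKO, which overlap (fold change 1.11, 0.95 to 1.29). Stat2 was at 47.6 ± 5.01 and 54.8 ± 2.04 CPM (1.15, 0.992 to 1.33). Irf7, the factor that amplifies interferon alpha production, was at 17.9 ± 3.5 and 17.3 ± 0.78 CPM (0.963, 0.78 to 1.19). All 3 intervals lie within 1.5-fold either way.

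ISG15 is a ubiquitin-like protein that is joined to other proteins in infected cells, and its gene had the lowest fold change of the tested members. Isg15 (ENSMUSG00000035692, chr4:156199424-156200818) was at 9.96, 11.6 and 6.07 CPM in WT and 6.11, 4.96 and 6.3 CPM in RXRKO. WT replicates 1 and 2 were high, and WT replicate 3 lay among the knockout libraries. The fold change of 0.644 (0.461 to 0.898) missed the threshold (edgeR adjusted p = 0.0632) and passed it, in the same direction, without WT replicate 3 (0.00645), with no filter (0.011) and after thinning (0.0169). Herc6, the main ligase that attaches ISG15 in mice, gave 29.4 ± 2.7 and 33.2 ± 2.39 CPM, with 13.7% of its exon bases in an overlapping gene on the same strand. Usp18, which removes ISG15 and blocks the interferon receptor, gave 3.88 ± 0.333 and 5.1 ± 0.502 CPM without overlap (edgeR adjusted p = 0.19).

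Oligoadenylate synthetases sense double-stranded RNA and activate RNase L. None of the 5 tested members, which include the synthetase-like genes Oasl1 and Oasl2, passed in edgeR. At an unadjusted p below 0.05 there was 1, Oas3, and DESeq2 and limma-voom called none. Oas1a, the most abundant of them per length, was at 47.9, 59.9 and 43.8 CPM in WT and 43.9, 40.5 and 56.6 CPM in RXRKO, fully overlapping (fold change 0.934, 0.757 to 1.15). It shares 47.6% of its 75-base stretches with Oas1g, and their sum, 60.7 ± 8.79 and 57.4 ± 10.6 CPM, overlapped too. Oas3, the largest synthetase, was at 50.9, 59.3 and 60.9 CPM in WT and 70.3, 62.1 and 73.1 CPM in RXRKO, without overlap (1.2, 1.03 to 1.39, edgeR adjusted p = 0.0874). Oas2 was at 20.6 ± 4.15 and 18.4 ± 1.39 CPM and Oasl2 at 46 ± 0.895 and 47.1 ± 4.21 CPM. Oasl1, a repressor of Irf7 translation, had 51 reads in WT and 76 in the deeper RXRKO libraries. Relative to library size, Oasl1 was at 1.52 ± 0.596 CPM in WT and 1.26 ± 0.277 CPM in RXRKO, overlapping (fold change 0.818, 0.473 to 1.41).

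Cytosolic sensors were also near level, all 4 with intervals inside 1.5-fold. Ifih1, which encodes the long-RNA sensor MDA5, was at 33, 31.7 and 34.7 CPM in WT and 36.4, 40.3 and 43 CPM in RXRKO. These did not overlap, but the fold change of 1.2 (1.04 to 1.4) did not pass (edgeR adjusted p = 0.0815). Ddx58, which encodes RIG-I, gave 35.3 ± 4.76 and 32.5 ± 0.855 CPM. Dhx58 (LGP2), the most abundant of these genes per length, was at 27.6, 33 and 34.5 CPM in WT and 27.2, 25.9 and 31.1 CPM in RXRKO, which overlap. Zbp1, a sensor of Z-form nucleic acids that can start cell death, gave 6.51 ± 0.597 and 6.86 ± 0.625 CPM.

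The PYHIN gene Ifi204, whose product binds DNA in the nucleus and cytosol, was at 76.7, 77.6 and 66 CPM in WT and 58.3, 62.6 and 71.9 CPM in RXRKO. The groups overlap through WT replicate 3 and RXRKO replicate 3 (fold change 0.877, 0.752 to 1.02, edgeR adjusted p = 0.227). Ifi204 shares 13.2% of its 75-base stretches with other genes of this family, and the family sum of 5 genes was 261 ± 15.2 and 257 ± 13.1 CPM. Ifi205 had 4, 7 and 2 reads in WT and 6, 5 and 14 reads in RXRKO and was not tested. Of the CXCR3 ligands, which draw activated T cells, Cxcl9 had 6, 1 and 1 reads in WT and 3, 2 and 5 in RXRKO and was not tested. Cxcl10 was at 1.76, 1.3 and 2.48 CPM in WT and 2.62, 2.18 and 2.99 CPM in RXRKO, overlapping, with a fold change of 1.33 (0.865 to 2.05, edgeR adjusted p = 0.349).

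**Figure D4:**
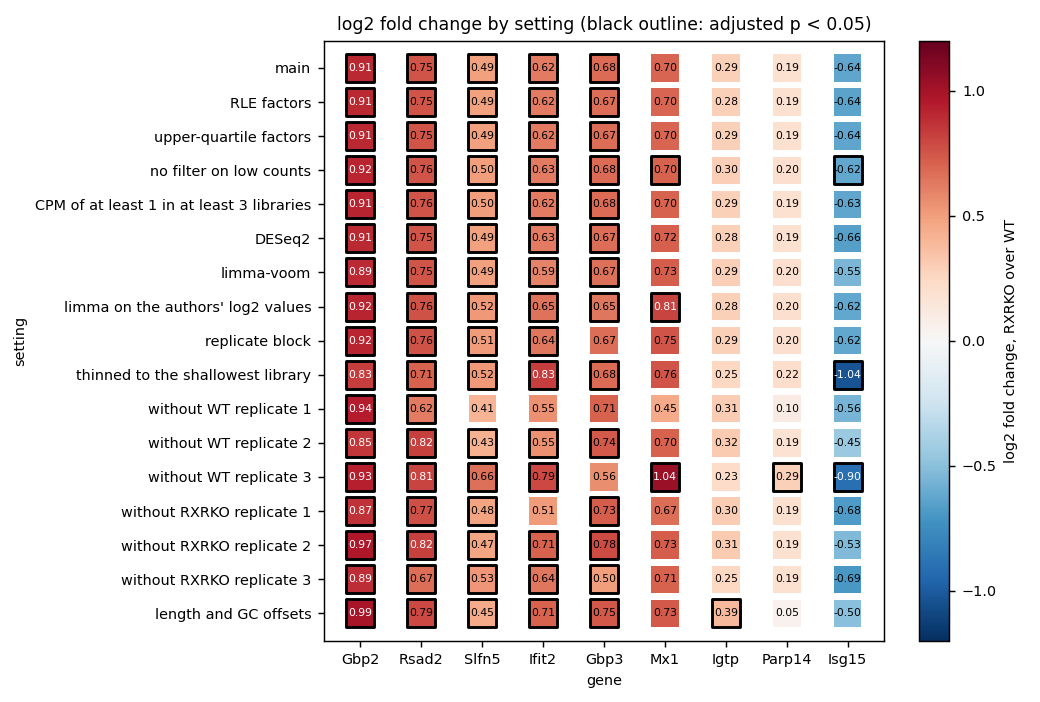
log2 fold change, RXRKO over WT (number and colour), of the 5 called members and of 4 members called in at least 1 other setting, in the main analysis (top line) and 16 alternatives, with a black outline where the adjusted p was below 0.05. Gbp2 and Rsad2 are outlined in every line, and Isg15 alone is negative.

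The 39 members lie on 14 chromosomes. Stat2 is the closest to a modified locus, 11 Mb from Lyz2 on chromosome 10, and Ifih1 and Zbp1 share chromosome 2 with Rxra at more than 34 Mb. None of the 5 called members is on a chromosome with Rxra, Rxrb or Lyz2.

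Upstream of the members, interferon transcripts themselves were hardly seen. Over 3 libraries each, Ifnb1 had 1 read in WT and 0 in RXRKO, Ifna4 had 2 and 1, Ifng had 0 and 3, and Ifna1 and Ifna2 had 0 in all. A count of 0 over a group allows up to 0.0924 CPM in WT and 0.0493 CPM in RXRKO, counting error only. Of 21 tested genes of interferon receptors and signalling, 5 rose (23.8%, beside 9.77% of all genes), 1 fell (4.76%, beside 9.61%) and 15 did not pass, with a median of 0. Irf8, a lineage factor of macrophages, was at 179, 189 and 182 CPM in WT and 297, 286 and 267 CPM in RXRKO (log2 fold change 0.63, SE 0.078, edgeR adjusted p = 0.000122). Irf5, which drives inflammatory cytokine genes, went from 288 ± 16 to 386 ± 7.82 CPM (0.42, edgeR adjusted p = 0.00215), and Irf1 from 51.7 ± 0.676 to 65.9 ± 1.44 CPM (0.35, edgeR adjusted p = 0.00942), a call lost without RXRKO replicate 1 (0.0552). Ifnar1 and Stat3, named after their values were seen, also rose, but Ifnar1 was called in 9 and Stat3 in 7 of 16 alternative settings. Leaving out WT replicate 1 or 2 or RXRKO replicate 1 or 2 ended either call. Leaving out RXRKO replicate 3 ended that of Stat3 too (edgeR adjusted p = 0.0806). Socs3, a feedback inhibitor of cytokine receptors, fell from 3.47 ± 0.234 to 1.34 ± 0.282 CPM (-1.35, edgeR adjusted p = 0.00299). The phosphatase gene Ptpn6, the most abundant gene of the list per length, was at 403 ± 23.5 and 384 ± 28.4 CPM. The count of 5 rises was 3 without WT replicate 1, WT replicate 2 or RXRKO replicate 2, and 2 without RXRKO replicate 1. In those fits, in that order, 5.4%, 7.45%, 6.57% and 5.76% of all tested genes rose, also below the 9.77% of the main fit.

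Of 26 tested nucleic acid sensing genes, 5 rose (19.2%, beside 9.77% of all tested genes), 3 fell (11.5%, near the 9.61% of all tested genes) and 18 did not pass. Ikbke, a kinase that phosphorylates IRF3 and IRF7, was at 47, 55.4 and 64 CPM in WT and 103, 96 and 116 CPM in RXRKO, far apart (log2 fold change 0.92, SE 0.116, edgeR adjusted p = 0.000143). Unc93b1, which carries nucleic acid-sensing Toll-like receptors to endosomes and was the most abundant of the list per length, went from 1010 ± 62.5 to 1350 ± 23.7 CPM (0.42). The DNA receptor gene Tlr9 went from 27.2 ± 5.46 to 37.9 ± 1.85 CPM (0.47, edgeR adjusted p = 0.0253), which did not hold when WT replicate 1 (0.0981), RXRKO replicate 1 (0.0673) or RXRKO replicate 2 (0.0753) was left out. Of the 3 subunit genes of RNase H2, which removes RNA from DNA, 2 fell: Rnaseh2b from 37.1 ± 4.69 to 21.5 ± 0.515 CPM (-0.78, edgeR adjusted p = 0.000413) and Rnaseh2c from 60.5 ± 8.43 to 37.8 ± 3.58 CPM (-0.67, edgeR adjusted p = 0.00125). The other subunit gene, Rnaseh2a, gave 50.9 ± 12.4 and 44.6 ± 8.96 CPM, which overlap, and did not pass (edgeR adjusted p = 0.514). Tlr8, an endosomal receptor gene, fell (-0.53, edgeR adjusted p = 0.0355), but leaving out WT replicate 1 (0.0744), WT replicate 3 (0.0914), RXRKO replicate 1 (0.0925) or RXRKO replicate 3 (0.0697) ended that call. The count of 5 rises was 3 without WT replicate 1 or 2 and 2 without RXRKO replicate 1 or 2. In those fits, in that order, 5.4%, 7.45%, 5.76% and 6.57% of all tested genes rose, also below the 9.77% of the main fit.

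A further 63 tested interferon-stimulated genes outside the members included 8 rises (12.7%, beside 9.77% of all tested genes) and 4 falls (6.35%, beside 9.61%), both near the background, while 51 missed the threshold. Their median was 0.045. Ifitm3, a membrane protein gene that blocks virus entry, had the largest rise of this list: 161, 124 and 150 CPM in WT and 415, 419 and 322 CPM in RXRKO (log2 fold change 1.41, SE 0.12, edgeR adjusted p = 5.75e-06). Every knockout library was more than 100 CPM above every WT library. Phf11b rose from 3.5 ± 0.441 to 8.43 ± 1.94 CPM (1.26, edgeR adjusted p = 0.00128) and Cd274, which encodes the checkpoint ligand PD-L1, from 23.4 ± 1.26 to 34.8 ± 1.96 CPM (0.57, edgeR adjusted p = 0.00172). Lgals3bp, a secreted scavenger receptor domain protein gene, fell from 500 ± 41.8 to 367 ± 15.6 CPM (-0.45), and Ly6e, Irgm2 and Fcgr1 fell as well. The call of Ly6e (-0.32, edgeR adjusted p = 0.0108) was lost without RXRKO replicate 2 (0.0546), and that of Fcgr1 (-0.37, edgeR adjusted p = 0.022) without WT replicate 1 (0.111) or RXRKO replicate 3 (0.0624) and with length and GC offsets (0.0568). Without RXRKO replicate 1 or 2, 5 genes of the list rose, in fits where 5.76% and 6.57% of all tested genes rose.

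Markers of other cells that make or answer interferon were measured beside these groups, since in bulk RNA fewer cells of a type and less RNA per cell cannot be told apart. Of 7 plasmacytoid dendritic cell markers, the defining genes Siglech and Ccr9 had 4 and 6 reads in WT and 6 and 11 in RXRKO. Relative to library size, Siglech averaged 0.134 CPM in WT and 0.11 CPM in RXRKO, and Ccr9 0.165 and 0.198 CPM. Klk1 had 0 reads, and the summed level, mostly Tcf4, ran from 65.8 to 74.6 CPM in WT and from 62.7 to 68.8 CPM in RXRKO. Conventional dendritic cell markers summed to between 168 and 178 CPM in WT and between 239 and 253 CPM in RXRKO. Nearly all of that sum was Itgax, which macrophages also express and which rose, while Flt3, Zbtb46, Xcr1, Clec9a and Ccr7 each stayed below 1 CPM in both means. Neutrophil markers summed to between 757 and 894 CPM in WT and between 613 and 748 CPM in RXRKO. Ngp and Elane were lower, and the other neutrophil markers did not pass. Fold changes of those were 0.842 for S100a9, 0.949 for S100a8, 0.963 for Camp, 1.13 for Ly6g and 1.76 for Retnlg. The part of neutrophil markers in the member values was not tested. T and NK cell markers summed to between 0.196 and 0.261 CPM in WT and between 0.397 and 1.14 CPM in RXRKO, too few reads for a test. B cell markers, also untested, summed to 0.131 to 0.261 CPM and 0.119 to 0.872 CPM. Fibroblast markers summed to 9.52 to 11.1 CPM in WT and 4.17 to 10.4 CPM in RXRKO. Col3a1 fell to 0.266 of its WT level (edgeR adjusted p = 0.00349), Col1a1 and Col1a2 did not pass, and Pdgfra and Dcn were not tested.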

How the data were processed

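The authors deposited raw counts per Ensembl gene for 6 libraries, and a second table of log2 values that they normalized. Set against the counts, each log2 column is the log2 of the count times 1 constant. Per the submitters' processing notes, reads were handled with TopHat2 2.0.7 and DESeq on mm10 (GRCm38). For the counting program, annotation release and strand setting, the sources used here give nothing. Per the labels' protocols, 100 ng of RNA entered each library. Replicates are called biological with no animals named, so the p-values speak only of library-to-library spread, which may be technical.

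The test was that of edgeR 4.0.16 under R 4.3.3, on the deposited counts: filterByExpr (minimum count 10, total 15), TMM factors, robust quasi-likelihood F test, genotype alone, Benjamini-Hochberg over 12011 genes. SE and 95% intervals restate that F test. Alternatives used DESeq2 1.42.0, limma 3.58.1 (voom, and the authors' log2 values turned back to linear and tested as log2(value + 1)), other scalings and filters, thinning, a replicate block, and each library left out; length and GC offsets were added after seeing the data. Symbols and positions are from GENCODE M21 (45106 of 45193 identifiers matched). Shared stretches are 75-base words found in transcripts of other genes. Same-numbered libraries were not treated as pairs in the main test. Members, lists and naming rules were chosen with earlier results of these data known. The rule named every member, with values for the called members, the most abundant per length of each role and the untested, and up to 3 genes that rose and 3 that fell of each other list.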

Additional observations from a re-analysis of the deposited data

How the results depend on the processing

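The median over the members stayed between 0.136 and 0.211 in all 16 alternatives. The median over all genes lay between -0.025 and 0.003 in 15 of them and at 0.123 with no filter on low counts. The members stood at 0.154 in that fit, which took in 27301 genes, among them those that fail the filter. Of 590 recomputed member values, 566 kept both direction and side of the threshold. Most of these values belong to the 32 members that were not called in the main fit. Of the 5 called members, Gbp2 and Rsad2 were called in all 16 alternatives, Slfn5 in 15, Ifit2 in 14 and Gbp3 in 13. The count of 5 risen members ranged from 2 (without WT replicate 1) to 6 with a library left out, and was 4 to 6 otherwise. The count of 0 fallen members became 1, Isg15, with no filter on low counts, after thinning, and without WT replicate 3 (range 0 to 1 with a library left out). Counts over all genes ranged from 1286 to 2607 with a library left out. With each library left out, risen signalling genes ranged from 2 to 6, risen sensing genes from 2 to 5, and risen further interferon-stimulated genes from 5 to 10. The risen share of all tested genes ranged from 5.4% to 10.4% in those fits, beside 9.77% in the main fit. With thinning, 3 sensing genes rose, beside 8.3% of all tested genes. With the replicate number as a block, the counts were 1375 over all genes, 4 risen members, 2 risen signalling genes, 3 risen sensing genes and 2 fallen further genes. In that fit 5.9% of all tested genes rose and 5.54% fell, beside 9.77% and 9.61% in the main fit. Among genes named here, the block ended the calls of Gbp3 (edgeR adjusted p = 0.0544), Irf1 (0.06), Ly6e (0.0679), Fcgr1 (0.0516), Tlr8 (0.101), Ifnar1 (0.123) and Stat3 (0.134). Deviations of same-numbered libraries correlated at 0.091, -0.404 and -0.343, and those of WT replicate 2 and RXRKO replicate 3 at 0.441. Deviations from a mean of 3 libraries are tied to one another. These values therefore cannot say whether libraries share an animal or a day. The cause of these moves was not tested, except that fewer samples enter each left-out fit.

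Signs turned, always short of the threshold, for Ddx58 (0.006) and Xaf1 (0.027) after thinning, for Oas1a (0.007), Oasl2 (-0.045) and Rxra (-0.051) with length and GC offsets, and with a library left out for Bst2 (-0.21 to 0.006), Ifit1 (-0.007 to 0.279), Irf7 (-0.189 to 0.114), Oas1a (-0.25 to 0.034), Oasl2 (-0.023 to 0.101) and Xaf1 (-0.083 to 0.001). Under the RLE and upper-quartile scalings no member changed direction or call. Intervals reach past 1.5-fold for Oasl1, Mx2, Gbp5, Ifi44, Isg20 and Cxcl10, all with few reads. They also do so for Usp18, Cmpk2, Ifit3, Mx1 and Isg15, which were not called in the main fit either. The part of depth in these widths was not tested.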
